A study of Danio rerio with 16 samples.

Results

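In cultured zebrafish ovary, 10 genes of the egg coat were measured in every library: 6 of the zp3 type (zp3, zp3b, zp3a.1, zp3a.2, zp3d.1, zp3d.2) and 4 of the zp2 type (zp2.1, zp2.2, zp2.3, zp2.5). They were taken by gene name, and each had 1 row among the 29629 gene rows listed in any of the 3 count tables, with 0 copies on alternate scaffolds. Pieces of ovary from wild-type adult females were cultured for 6 h at 28 °C with the solvent DMSO (control), the peptide PNX-20 at 100 nM, or the small molecules A8535 or PT-91 at 5 µM, and 4 libraries were made for each group. PNX-20 is a form of phoenixin, a putative ligand of the receptor SREB3, and A8535 and PT-91 were developed as agonists of human SREB1 (GPR27). For the zebrafish receptor the paper modeled their binding by computer simulation only. It also mentions preliminary, unshown work in which PT-91 may bind other human SREB receptors. PT-91 carries a methoxy and a trifluoromethyl group on the ring where A8535 has a pair of chlorines. The fish came from ponds, no age is stated, and the ovary held mostly follicles in primary or early secondary growth. Sections of the ovaries of 1 fish went to wells with different treatments, so libraries of different groups can come from the same fish, but which do is not given. P-values therefore measure the spread between these libraries as if they were independent.

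The egg coat (zona pellucida in mammals, chorion or vitelline envelope in fish) is a layer of glycoprotein filaments around the growing oocyte. Its subunits share a zona pellucida domain, through which they polymerize after they are secreted and cut by a furin-type protease. In the mouse the Zp genes are transcribed in the oocyte under the factor FIGLA. In fish the coat proteins come from the oocyte, the liver, or both, depending on the species, and sperm pass the coat through a canal, the micropyle. Fish genomes hold many zp2-type and zp3-type genes, often in tandem, and the separate roles of the copies are not described here.

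Apart from zp3b, the genes lie beside other zona pellucida genes on GRCz11. The 4 zp2 genes sit on the plus strand of chromosome 20, with zp2.2 at 54290361 to 54292144, zp2.3 at 54295213 to 54297047, zp2.1 at 54309146 to 54311000, and zp2.5 at 54312970 to 54314820. On the same chromosome and strand, zp3a.2 spans 33987465 to 33989427 and zp3a.1 spans 33991800 to 33993770. The zp3d genes are neighbors on the minus strand of chromosome 16, zp3d.2 at 42048362 to 42056137 and zp3d.1 at 42057998 to 42066617. On chromosome 17, zp3 lies on the minus strand at 2580539 to 2584416, and zp3b lies on the plus strand of chromosome 2 at 6253291 to 6258794. All are annotated as protein coding. Reads from near-identical copies can be split or lost in counting, and no source used here states how reads with several matches were treated, so levels within a cluster are uncertain in that respect.

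Libraries held 10233870 to 15104959 reads assigned to genes, and no pair of the 16 libraries had identical counts. Every egg coat gene passed the filter on low counts in all comparisons, with between 250 reads (zp2.5) and 42963 reads (zp3a.1) in a library. The oocyte origin of the tissue was clear from its markers: h1m, the oocyte linker histone, averaged 2591 CPM (counts scaled to an equal library size, on the TMM scale of all libraries), and buc, which organizes the Balbiani body, averaged 1583 CPM. Mitochondrial genes took over 2% of counts in 4 libraries, A8535 replicates 2 and 3 (3.95% and 2.31%) and PT-91 replicates 1 and 2 (4.08% and 3.98%), against 0.190% to 1.57% in the others. Liver genes stood apart in A8535 replicate 4. The markers that passed the filter (vtg1, vtg2, apoba, tfa, fetub, and fgb) summed to 3788 CPM there, against 4.24 to 232 CPM in the other 15 libraries. fabp10a, a liver fatty acid binding protein that the filter left out of this sum, had 251 reads in that library. In the others it had 0 to 18 reads, and it had 0 reads in 12 libraries.

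Together the 10 genes took 1.08% to 1.42% of the counts of the control libraries and 1.08% to 1.64% with PNX-20, but 0.779% to 1.17% with A8535 and 0.501% to 1.07% with PT-91. They made up 30.1% to 42.4% of the counts of the 62 rows whose annotation names a zona pellucida domain or protein. Summed, they stood at 12887 ± 2000.4 CPM in the control (mean ± SD, n = 4), 13904 ± 2640 CPM with PNX-20, 9069 ± 1653 CPM with A8535, and 8562 ± 2800.1 CPM with PT-91. PT-91 lay below every control library on this measure only in replicates 1 and 4, at 5531 and 6867 CPM, while replicates 2 and 3 stood at 11312 and 10537 CPM, above the lowest control library at 10509 CPM.

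Per length of gene, zp3a.1 was the most abundant of the 10, at 1748 ± 435 RPKM (CPM per kilobase of gene length, SD, n = 16), and it ranked first in each of the 16 libraries. The next was its tandem neighbor zp3a.2 at 1508 ± 464 RPKM, then zp3b at 1218 ± 367, zp3 at 1043 ± 390, and zp2.2 at 1038 ± 482 RPKM. The order of zp3b and zp3 held in 11 of 16 libraries, and that of zp3 and zp2.2 in only 9, so these 3 were not separated beyond their spread. A step down followed, since zp2.2 exceeded zp2.1 in all 16 libraries, with zp2.1 at 404 ± 161 and zp2.3 at 396 ± 199.8 RPKM. The latter pair was not separated either, with zp2.1 the higher in 7 of 16. At the bottom stood zp3d.2 at 135 ± 33.9, zp3d.1 at 83.9 ± 26.9, and zp2.5 at 72.7 ± 51.4 RPKM, and zp3d.1 exceeded zp2.5 in 9 of 16 libraries. The plot of levels per length shows these tiers.

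**Figure D1:**
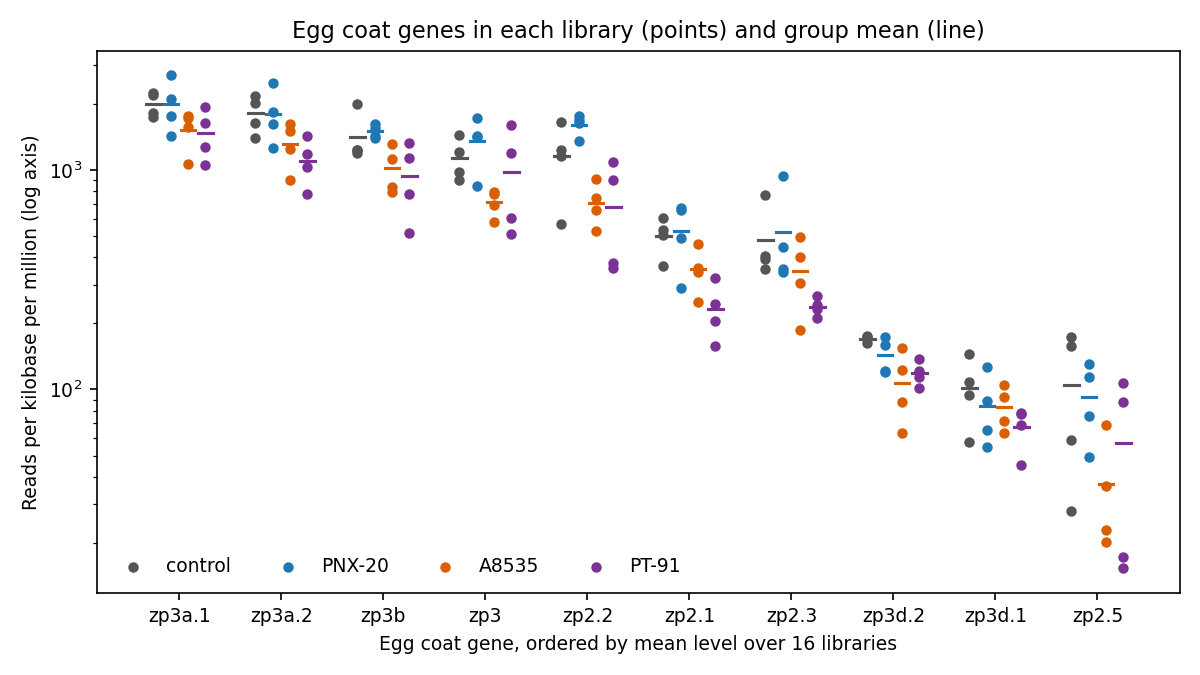
RPKM (log axis) of each egg coat gene, ordered by mean, with 1 point per library and a line at each mean of 4 libraries. zp3a.1 leads at a mean of 1748 RPKM, zp2.2 at 1038 stands well above zp2.1 at 404, and zp2.5, the lowest at 72.7, is the most scattered.

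With the SREB1 agonist A8535, all 10 egg coat genes had a fitted log2 fold change below 0, the largest for zp2.5 (-1.49) and the smallest for zp3d.1 (-0.28). Below 0 also lay 53.6% of all genes tested, with a median over all genes of -0.04 against -0.49 for the egg coat genes. None of them passed an adjusted p of 0.05 in edgeR's quasi-likelihood test (adjusted p = 0.999 for each), and 0.0% of the 17377 genes did. Of the 10, 3 were lower at an unadjusted p under 0.05, namely zp3, zp2.5, and zp3d.2, where 0.719% of all genes were lower by that rule. DESeq2 called 4 genes in this comparison (0.0144%), with 0 of the egg coat among them, and gave 2 of the 10 as lower at an unadjusted p under 0.05, next to 0.857% of all genes.

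zp3 stood at 922, 766, 1050.2, and 1035 CPM with A8535 and at 1189, 1913, 1298, and 1609 CPM in the control. All 4 A8535 libraries were below all 4 controls. The log2 fold change was -0.67 (SE 0.25, 95% interval -1.23 to -0.10). For zp3d.2 the control was tight, at 277, 272, 268, and 257 CPM, whereas A8535 gave 193, 139, 99.5, and 243 CPM. Again the groups did not overlap, although replicate 4 of A8535 came close to the control, and the log2 fold change was -0.67 (SE 0.28, interval -1.30 to -0.04). These were the 2 of 10 egg coat genes entirely below the control, and 1.05% of all genes tested were. The lowest gene, zp2.5, was at 27.0, 48.8, 92.7, and 30.7 CPM with A8535, and its controls spread from 37.5 and 79.4 to 211 and 234 CPM. Its groups overlapped despite the log2 fold change of -1.49 (SE 0.61, interval -2.85 to -0.12).

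Control replicate 1 was also low in zp2.2, at 733 CPM, while its other controls were at 1502, 1597, and 2134 CPM. With A8535, zp2.2 stood at 1174, 964, 849.5, and 681 CPM, below the latter 3, and its log2 fold change was -0.70 (SE 0.35, interval -1.47 to 0.08). The abundant zp3a.1, zp3a.2, and zp3b had log2 fold changes of -0.38, -0.45, and -0.47, and zp2.1 and zp2.3 of -0.51 and -0.46. In these 5 genes and in zp3d.1 (-0.28) the groups overlapped and the intervals included 0. zp3a.1 ran from 1536 to 2542 CPM with A8535 and from 2519 to 3248 CPM in the control, so that only A8535 replicate 1 reached into the control range. zp3a.2 ran from 1287 to 2313 CPM against 2007 to 3111 CPM, and zp3b from 1381 to 2285 CPM against 2064 to 3472 CPM. For zp2.1 the ranges were 344 to 627 and 499 to 829 CPM, for zp2.3 they were 252 to 666 and 479.8 to 1037 CPM, and for zp3d.1 they were 137 to 224 and 124 to 311 CPM. Replicate 3 was the lowest A8535 library in all 6 of these genes. Without A8535 replicate 4, the library with liver transcripts, the median of the 10 was -0.54, and without the 2 A8535 libraries of high mitochondrial share it was -0.26 with 10 of 10 still below 0. zp2.5 then stood at -2.27, zp3 at -0.60, zp3d.2 at -0.28, and zp3d.1 at -0.01. The count of 3 at an unadjusted p under 0.05 fell to 0 when control replicate 2, control replicate 4, A8535 replicate 1, or A8535 replicate 2 was left out. Of all genes, 78, 46, 206, and 101 were lower by that rule in these fits, in that order, against 125 in the main fit.

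With PT-91, the other SREB1 agonist, the 10 egg coat genes again all had a fitted log2 fold change below 0, from -0.14 (zp3) to -1.03 (zp2.1), with a median of -0.58. Here 49.8% of all genes lay below 0, and the median over all genes was 0.00. By edgeR's test none passed an adjusted p of 0.05 (adjusted p = 0.712 to 0.952), as for 0.0% of the 17276 genes tested. The 2 with an unadjusted p under 0.05 were zp2.1 and zp2.3, both of the chromosome 20 cluster, and 1.49% of all genes were lower by that rule. DESeq2 called 35 genes (0.127%), 0 of them egg coat genes, and gave the same 2 at an unadjusted p under 0.05, where 2.01% of all genes were lower, with DESeq2 adjusted p-values of 0.292 and 0.376. The 3 comparisons with the control share its 4 libraries, so their values are not independent of each other.

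zp2.1 measured 216, 440.5, 337, and 282 CPM with PT-91 and 499, 829, 725, and 692 CPM in the control. Every PT-91 library was below every control, and the fitted level was 0.489 of that of the control (log2 fold change -1.03, SE 0.32, interval -1.73 to -0.33). zp2.3 was the most even gene under PT-91, at 315, 328, 358, and 285 CPM, against 545, 479.8, 1037, and 529 CPM in the control. It did not overlap either, and the log2 fold change was -0.95 (SE 0.31, interval -1.63 to -0.26), or -0.68 without control replicate 3, its highest control. The third that lay entirely below the control was zp3d.2, at 179, 160.1, 218, and 192 CPM (log2 fold change -0.46, SE 0.23, interval -0.98 to 0.05). Of all genes tested, 1.13% were entirely below the control.

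In zp2.5, zp2.2, and zp3 the PT-91 group split. For zp2.5, replicates 1 and 4 were at 23.3 and 20.6 CPM and replicates 2 and 3 at 118 and 144 CPM, the latter within the range of the control. The same replicates divided zp2.2 (489 and 463 CPM against 1157 and 1399.6 CPM) and zp3 (680.0 and 801 CPM against 2121 and 1591 CPM). The log2 fold changes were -0.80 (SE 0.73) for zp2.5, -0.69 (SE 0.46) for zp2.2, and -0.14 (SE 0.41) for zp3, and leaving out PT-91 replicate 2 moved zp3 to -0.55. zp3a.2, zp3b, zp3d.1, and zp3a.1 had values of -0.64, -0.52, -0.51, and -0.37, all with intervals that included 0. Replicate 1 was the lowest PT-91 library in each of these 4, at 1113 CPM of zp3a.2, 896 CPM of zp3b, 97.9 CPM of zp3d.1, and 1522 CPM of zp3a.1. Their highest PT-91 values were 2040.3, 2297, 168, and 2804 CPM, each above the lowest control. Without the 2 PT-91 libraries of high mitochondrial share the median was -0.56, with zp2.1 at -1.14 and zp2.3 at -0.99.

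**Figure D2:**
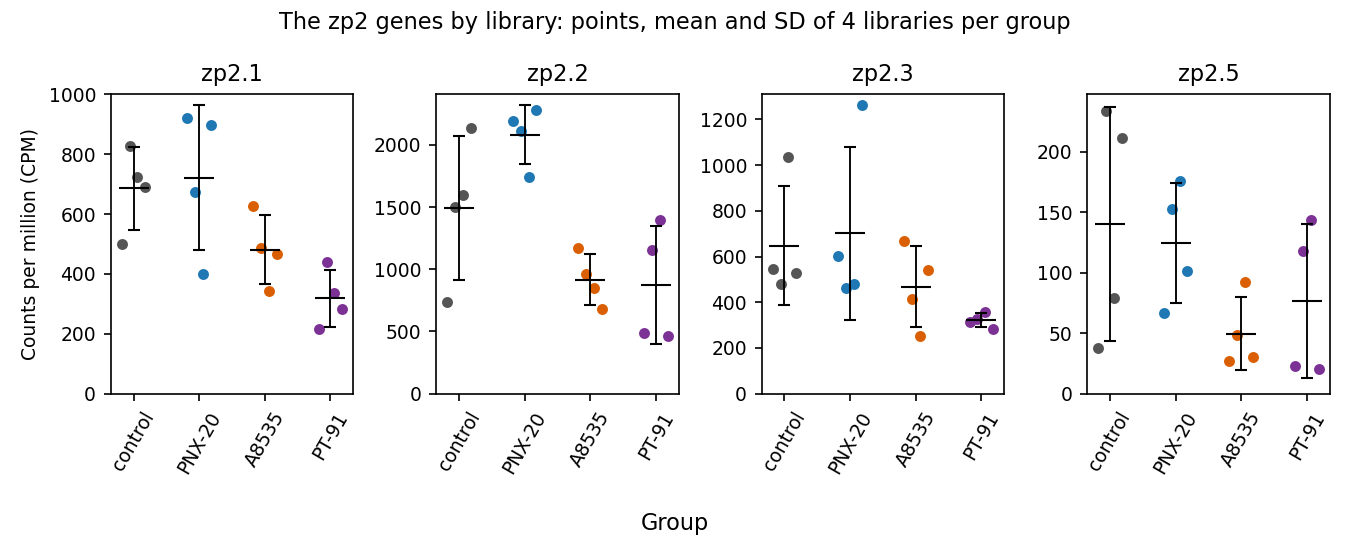
CPM of the zp2 genes by group, with 1 point per library (replicates 1 to 4 from left to right) and the mean and SD of 4 libraries. In zp2.1 and zp2.3 the PT-91 libraries reach at most 440.5 and 358 CPM, below every control, whereas zp2.2 and zp2.5 under PT-91 fall into a low and a high pair.

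With PNX-20, the 10 egg coat genes stood near the control. Of the 10, 7 had a log2 fold change above 0 and 3 below, where 51.4% of all genes were below, and the median was 0.04 against -0.02 over all genes. By edgeR's test 0 of the 10 passed an adjusted p of 0.05 (adjusted p = 0.998 to 0.999) and 0 passed an unadjusted p under 0.05, next to 0.0% and 2.51% of the 17118 genes tested, and DESeq2 called 37 genes (0.133%) with 0 egg coat genes among them. All 10 overlapped with the control, where 0.882% of all genes lay entirely below it and 0.777% entirely above. The highest was zp2.2, at 2190.3, 2109, 1744, and 2280.3 CPM, with the highest control of 2134 CPM among them and the lowest at 733 CPM. Its log2 fold change was 0.49 (SE 0.32, interval -0.24 to 1.21). zp3a.1 and zp3a.2 were both at 0.00 (SE 0.27 and 0.29), with intervals from -0.60 to 0.61 and from -0.63 to 0.64. These intervals do not exclude a change of up to about that size in either direction. zp3d.1 and zp3d.2 had the lowest values with zp2.5, at -0.27, -0.24, and -0.17. PNX-20 replicate 4 was the highest of its group in zp3, zp3b, zp3a.1, zp3a.2, zp3d.1, zp2.2, and zp2.3, and held 1262 CPM of zp2.3 where the other 3 held 464 to 604 CPM. Left out, it took the median of the 10 to -0.13 and zp2.3 from 0.12 to -0.32. The dose of PNX-20 differed from that of the agonists, so it was not compared with them.

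**Figure D3:**
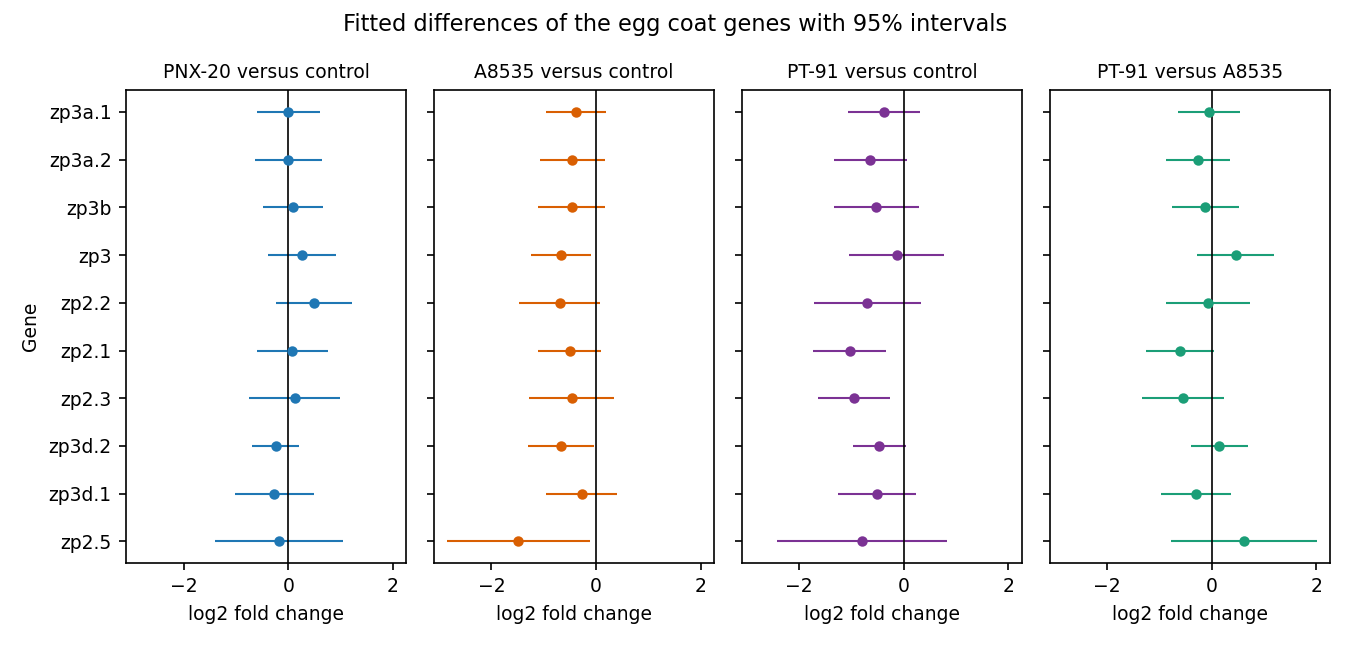
Fitted log2 fold changes of the egg coat genes (points) with 95% intervals (lines) in 4 comparisons, 4 libraries per group. All 10 points are below 0 for A8535 and for PT-91, and 7 of 10 are above 0 for PNX-20, while none passes an adjusted p of 0.05.

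The 2 agonists, which share dose and time, were compared directly in 1 fit of all 16 libraries. PT-91 was below A8535 in 7 of the 10 genes and above it in 3, where 52.5% of all genes were below, with a median of -0.09 against -0.04 over all genes. None of the 10 differed at an adjusted p of 0.05 (edgeR, adjusted p = 0.967 to 0.992) or at an unadjusted p under 0.05, next to 0.0% and 2.26% of the 19216 genes tested, and DESeq2 called 3 genes (0.0113%) with 0 of the egg coat among them. The smallest p was that of zp2.1, with a log2 difference of -0.59 (SE 0.31, interval -1.24 to 0.06). zp2.3 followed at -0.54 (interval -1.33 to 0.24). In the other direction lay zp2.5 at 0.62 (interval -0.78 to 2.02), zp3 at 0.46 (interval -0.27 to 1.19), and zp3d.2 at 0.15 (interval -0.38 to 0.69). For zp3a.1 the difference was -0.05 (interval -0.64 to 0.54) and for zp2.2 it was -0.06 (interval -0.87 to 0.74). The intervals of all 10 included 0, and even the narrowest, that of zp3d.2, spanned differences in both directions, so the compounds are not shown to act alike.

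The egg coat genes differed in how much they varied between libraries of a group. In SD of log2 CPM within groups, 9 of the 10 lay between 0.33 (zp3d.2) and 0.56 (zp2.2), near the median of 0.46 over the 3518 genes with a mean log2 CPM of at least 6. zp2.5 had an SD of 1.097, above that of 96.6% of those genes. Its highest control library was 6.24 times its lowest, against 1.08 times for zp3d.2 and 1.29 times for zp3a.1. Over all 16 libraries zp2.5 ran from 20.6 to 234 CPM, a range of 11.3-fold. The heat map of centered values shows this gene changing sign within each group.

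**Figure D4:**
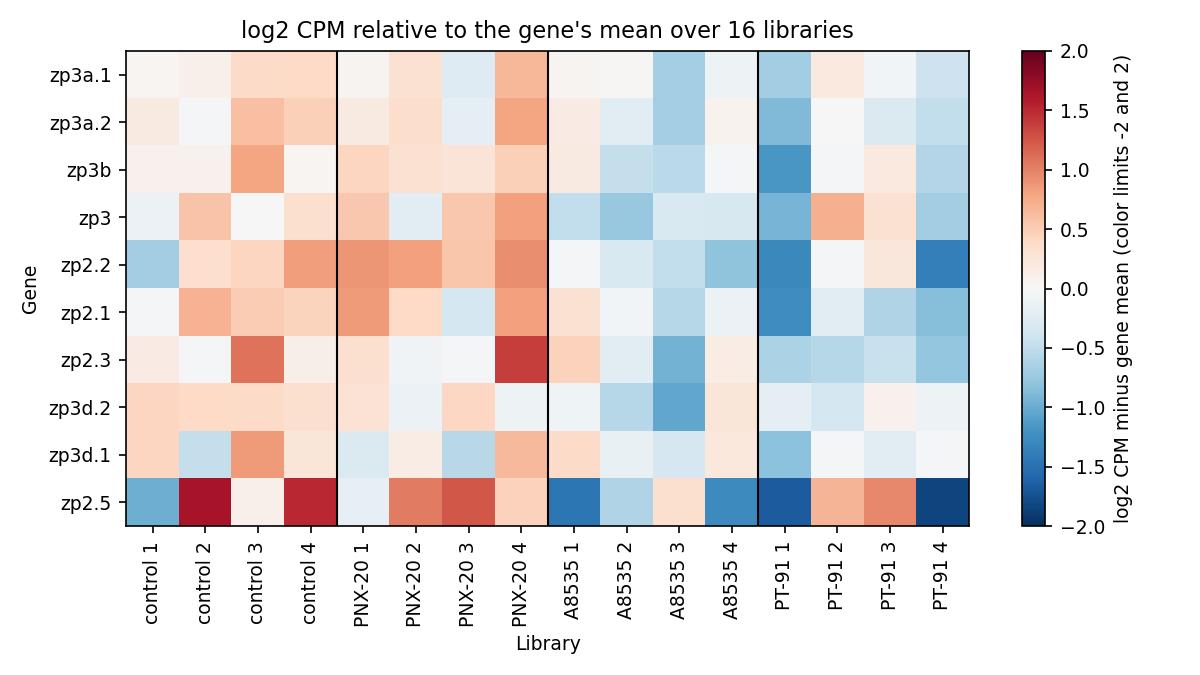
log2 CPM of each egg coat gene minus its mean over 16 libraries (color, limits -2 and 2), with genes in rows and libraries in columns by group. zp2.5 in the bottom row alternates between high and low libraries inside each group, more than any other egg coat gene, whereas the A8535 and PT-91 columns are mostly below 0.

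Genes of 1 cluster did not always vary together. Correlations of log2 CPM were computed for 45 pairs over the 16 libraries, as a description, since all genes of a library share its depth, scaling, and mix of follicles. The zp3a pair had r = 0.95, and r = 0.94 after the group means were removed. The zp3d pair, also neighbors, had r = 0.22 and then 0.06. zp2.5 ran with zp2.2 (r = 0.77, and 0.73 without group means) and with zp3 on another chromosome (0.75 and 0.64), but less with its closest neighbor zp2.1 (0.43 and 0.16), with zp2.3 (0.11 and -0.31), and with zp3d.1 (-0.07 and -0.26). The pair zp3a.2 and zp2.3 had r = 0.87, and 0.76 without group means.

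An egg coat score, the mean of the centered log2 CPM of the 10 genes, ran from -0.95 in PT-91 replicate 1 to 0.69 in PNX-20 replicate 4. By group its range was -0.05 to 0.51 in the control, 0.16 to 0.69 with PNX-20, -0.53 to -0.05 with A8535, and -0.95 to 0.03 with PT-91. Control replicate 1 and A8535 replicate 1 met at -0.05, and PT-91 replicates 2 and 3 (0.03 and 0.02) lay just above them. Over the 16 libraries the score had r = -0.57 with the mitochondrial share, -0.51 with the summed markers of stroma and vessels, 0.33 with those of oocytes, and 0.01 with those of follicle cells. These are given as descriptions over libraries of 4 groups, and the part of mitochondrial share or tissue mix in the results was not tested.

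**Figure D5:**
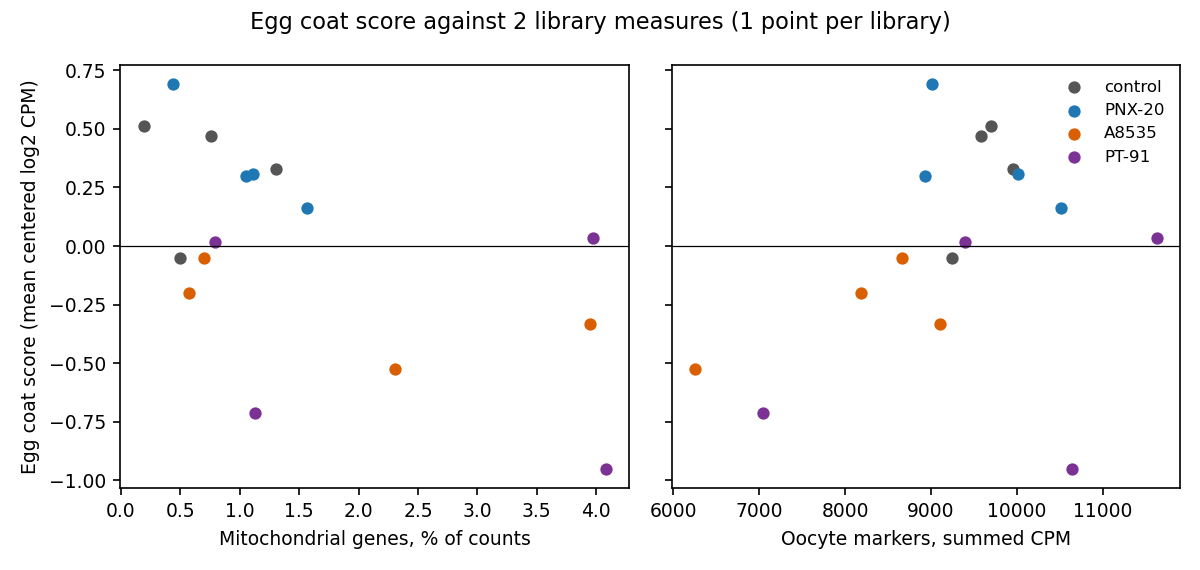
Egg coat score of each library (mean centered log2 CPM of 10 genes) against the mitochondrial share of counts (left) and the summed CPM of oocyte markers (right), colored by group. The 4 libraries over 2% mitochondrial counts are all treated with an agonist, and PT-91 replicate 1 has the lowest score, -0.95, with 10642 CPM of oocyte markers.

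Markers of the oocyte and of other ovarian cells were read in the same libraries. Summed oocyte markers ran from 9242 to 9952 CPM in the control, 8925 to 10509 with PNX-20, 6250.5 to 9102 with A8535, and 7047 to 11623 with PT-91. With A8535 all 4 libraries were below all controls in this sum, whereas PT-91 spanned them. The ratio of egg coat to oocyte marker CPM was 1.14 to 1.56 in the control, 1.08 to 1.95 with PNX-20, 0.955 to 1.27 with A8535, and 0.520 to 1.12 with PT-91, so that the PT-91 libraries lay below the control in the ratio while the A8535 libraries overlapped it. The oocyte sum leans on a few abundant genes, which moved in different directions with PT-91. From the control to PT-91, mean CPM went from 2255 to 3342 for h1m and from 1219 to 1764 for ca15b. It went from 1276 to 683 for zar1 and from 1742 to 1469 for buc. The ratio therefore also moves with these genes and does not measure egg coat RNA against a fixed oocyte content. In these bulk samples fewer growing oocytes and less egg coat RNA per oocyte cannot be told apart. Among 16 oocyte rows tested, 14 were below 0 with A8535, 11 with PT-91, and 8 with PNX-20, with medians of -0.26, -0.19, and -0.02. With A8535, 2 had an unadjusted p under 0.05 in edgeR, an alternate-scaffold row of btg4 (-1.41) and zar1 (-0.87). The mouse counterpart of zar1 is needed for the start of embryonic development. Rows of follicle cells were above 0 in 15 of 17 with either agonist (medians 0.86 and 0.71) and in 12 of 16 with PNX-20 (median 0.25). Their summed level was 353 to 655 CPM in the control, 427 to 622 CPM with PNX-20, 423 to 650 CPM with A8535, and 419 to 697 CPM with PT-91. Most of this sum came from cyp11a1 and cyp17a1, enzymes of steroid synthesis, at means of 304 and 132 CPM over the 16 libraries. It therefore says little of rarer genes such as lhcgr, the luteinizing hormone receptor, with means of 5.32 CPM in the control and 14.4 CPM with A8535, or hsd3b1, another steroid enzyme, with 8.80 and 24.5 CPM. Stroma and vessel rows were above 0 in 11 of 11 with A8535, 9 of 11 with PT-91, and 8 of 11 with PNX-20 (medians 0.99, 0.77, and 0.40). They summed to 44.1 to 131 CPM in the control, 58.7 to 238 CPM with PNX-20, 70.9 to 314 CPM with A8535, and 83.8 to 221 CPM with PT-91. Leukocyte rows were above 0 in 7 of 7 with PNX-20, 6 of 7 with A8535, and 6 of 8 with PT-91, and summed to at most 123 CPM in a library. Erythrocyte markers summed to at most 50.5 CPM, with 3 rows tested in each comparison. By edgeR and by DESeq2, 0 rows of these lists or of the liver markers passed an adjusted p of 0.05. At an unadjusted p under 0.05 in edgeR, 1 follicle row, 1 stroma row, and 2 leukocyte rows (csf1ra and coro1a) were higher with A8535, besides the 2 lower oocyte rows. Of all 17377 genes tested with A8535, 306 were higher and 125 lower by that rule. With PT-91, 1 stroma row was higher and 1 liver row (vtg1) was lower, next to 920 higher and 257 lower of 17276 genes. With PNX-20, 1 leukocyte row (lcp1) and 1 erythrocyte row (slc4a1a) were higher, next to 223 of 17118 genes. Between the agonists, 1 leukocyte row and 5 of 7 liver rows were lower with PT-91 by that rule, next to 0.739% of all genes. Each liver marker had its highest count in A8535 replicate 4, where vtg1 had 36097 reads against at most 2095 in any other library. The liver sum was also uneven in the control, at 37.4, 10.4, 33.2, and 232 CPM in replicates 1 to 4, next to 5.43 to 35.0 CPM with PT-91. The part of these cells in the egg coat results was not tested.

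Other rows with a zp name or a zona pellucida annotation were read beside the 10. The annotation names a domain or protein, so rows picked by it, such as engl, need not be egg coat genes. Of 8 other rows with a zp name, 6 were tested, and 0 of 6 were above 0 with A8535, 1 of 6 with PT-91, and 2 of 6 with PNX-20. zpcx, also on chromosome 17, had log2 fold changes of -1.03, -1.32, and -1.38 with PNX-20, A8535, and PT-91, and zp3.2, next to zp3 on chromosome 17, had 0.15, -0.73, and -0.76. Between zp2.3 and zp2.1 on chromosome 20 lie zp2.6 and si:zfos-1505d6.3, the latter a row annotated zona pellucida. With PT-91 their log2 fold changes were -0.76 (SE 0.32) and -1.08 (SE 0.37). zp2.6 had 0.40 with PNX-20 and -0.37 with A8535. The rows annotated zona pellucida outside the 10 include those with a zp name, so the counts overlap. Of these annotated rows, 23 of 26 were below 0 with A8535, 20 of 26 with PT-91, and 17 of 24 with PNX-20. Their medians were -0.51, -0.60, and -0.17. There were 0 adjusted calls among them in edgeR and in DESeq2. At an unadjusted p under 0.05 in edgeR, 2 of these rows were lower with A8535 (0.719% of all genes), 8 with PT-91 (1.49%), and 2 with PNX-20 (1.21%). By that rule 1 of them, engl, was higher with A8535 (log2 fold change 1.48, SE 0.62), next to 306 of 17377 genes. The row with the most counts, si:dkeyp-50f7.2 on chromosome 20, averaged 4843 CPM in the control, 4271 CPM with PNX-20, 3349 CPM with A8535, and 2467 CPM with PT-91. With PNX-20 the smallest p of these annotated rows was that of an alternate-scaffold row of si:dkey-19b23.11 (log2 fold change -1.01, SE 0.30). That row averaged 2111 CPM in the control, 1039 CPM with PNX-20, 1378 CPM with A8535, and 1140 CPM with PT-91.

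Genes known to act before and after egg coat transcription were less uniform. Of the early oocyte factors, 7 were tested and 4 of 7 were below 0 with each agonist. figla, the mouse counterpart of which drives Zp genes, averaged 24.5 CPM in the control, 44.3 CPM under PNX-20, 19.4 CPM under A8535, and 35.5 CPM under PT-91. Its libraries varied widely, and its log2 fold change with PNX-20 was 0.86 with an SE of 1.26. tcf12, a helix-loop-helix factor, had the smallest p of this list in each comparison with the control, with log2 fold changes of 0.37 (SE 0.38) for PNX-20, 0.86 (SE 0.42) for A8535, and 0.87 (SE 0.40) for PT-91. nobox, an oocyte homeobox factor, had log2 fold changes of -0.52 with PNX-20 (SE 0.56) and -0.93 with PT-91 (SE 0.49). Among convertases and egg surface genes, 4 of 7 were below 0 with each agonist. The furin-type protease gene pcsk5b had the smallest p with PT-91 (-0.87, SE 0.47) and with PNX-20 (-0.86, SE 0.51), and stood at -0.52 (SE 0.44) with A8535. Of 36 rows of the secretory pathway, through which the coat proteins leave the cell, 27 were below 0 with A8535, 24 with PT-91, and 18 with PNX-20, with medians of -0.17, -0.24, and -0.01. mia3, which helps load large cargo for export from the endoplasmic reticulum, stood at -1.01 with PT-91 (SE 0.46). These 3 lists held 0 adjusted calls in edgeR and in DESeq2. At an unadjusted p under 0.05 edgeR gave 0 rows of the other lists and 2 secretory rows, both on alternate scaffolds. These were 1 of rpn2, lower with A8535 (log2 fold change -2.10, SE 0.79), and 1 of sec11a, higher with PT-91 (2.57, SE 0.74). Of all genes, 125 of 17377 were lower with A8535 and 920 of 17276 higher with PT-91 by that rule. Between the agonists, 4 of 37 secretory rows were higher and 1 was lower with PT-91 by it, next to 293 higher and 142 lower of 19216 genes. Among these rows were an alternate-scaffold row of rpn2 (log2 difference 3.79, SE 1.13) and sec24d, a coat component of export vesicles (-0.84, SE 0.35). Summed over its 2 rows, however, rpn2 averaged 188 CPM with A8535 and 173 CPM with PT-91, so that gene as a whole was not higher with PT-91. Another of the 4 higher rows was an alternate-scaffold row of sec11a (log2 difference 2.22, SE 0.91). Summed over its 3 rows, sec11a averaged 78.2 CPM in the control, 87.1 CPM with PNX-20, 100 CPM with A8535, and 222 CPM with PT-91.

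The 5 genes most like the egg coat score among 7290 candidates, by correlation of log2 CPM over the 16 libraries, were crp2 (r = 0.87), fam73a (0.87), anapc5 (0.85), zar1 (0.85), and pdik1l (0.84). The correlations were 0.71 to 0.81 after the 2 libraries farthest from the median score were left out. crp2, at a mean of 1499.8 CPM, had log2 fold changes of 0.05, -0.67, and -0.76 with PNX-20, A8535, and PT-91. zar1 had 0.04, -0.87, and -0.84 in the same order, and anapc5, a subunit of the anaphase-promoting complex, had 0.14, -0.40, and -0.29. They were picked for their likeness to the score, so these values are a description.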

How the data were processed

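RNA of cultured zebrafish ovary was sequenced from 16 libraries, 4 per group. The deposited counts per gene came from polyA-selected, strand-specific libraries, by fastp (cleaning), HISAT2 2.0.5 (alignment, GRCz11), and featureCounts 1.5.0-p3, as run by the authors. The authors' deposited FPKM values, and the deposited signal values (counts divided by size factors, and their group means), were not used, and neither were the authors' own fold changes and p-values from DESeq2.

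The 3 tables hold 28089, 28228, and 28009 genes and share 26910, and their control counts do not differ in shared genes. The test was that of edgeR 4.0.16 in R 4.3.3 (filterByExpr, TMM, robust quasi-likelihood F test), 8 libraries per treatment comparison. PT-91 and A8535 were compared in 1 fit of all 16 libraries on the shared genes. Fits with the control were scaled on their own 8 libraries but printed CPM on all 16, so fitted changes can differ from ratios of printed means. Adjustment of p was by Benjamini-Hochberg across every gene of the fit, and the SE is the size of the log2 fold change over the square root of F. DESeq2 1.42.0 was an alternative. For log2 CPM the prior count was 2. The fits were tested on simulated data. Mitochondrial share counts all genes of the mitochondrial genome.

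The 10 genes and the gene lists (early oocyte factors, convertases and egg surface genes, secretory pathway, other egg coat genes, and 6 marker lists) were chosen with earlier results of these data known. All 10 are named. From each list, only some of the 3 rows with the smallest p in a comparison are named, and which was decided after their values were seen, as were h1m, buc, fabp10a, figla, cyp11a1, and si:dkeyp-50f7.2. The 5 most alike genes had a symbol, no zp name, and a mean log2 CPM of at least 4. Alternatives were other scalings, no filter, summed copies, 1 fit of all libraries, a replicate block, and each library left out. The fit without libraries of over 2% mitochondrial counts was chosen after seeing the data. Figures used Python 3.11.15 and matplotlib 3.10.9.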

Additional observations from a re-analysis of the deposited data

Results flagged for a closer look

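Among 40 groups of 4 libraries checked, 4 for each egg coat gene, the highest control library stood far from the other 3 in 2 genes, and chance alone sets about 1 in 20 groups apart in this way. In zp3b it was control replicate 3 at 3471.5 CPM, where the others were at 2141, 2126, and 2064 CPM. In zp2.3 it was the same library at 1037 CPM, next to 545, 479.8, and 529 CPM. Without it the log2 fold changes of zp3b against the control were 0.30 (PNX-20), -0.26 (A8535), and -0.37 (PT-91), and those of zp2.3 were 0.43, -0.15, and -0.68.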

How the results depend on the processing

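Under the alternatives run, none of the 10 genes passed an adjusted p of 0.05 in any comparison. The direction of each of the 10 was kept in all 16 alternatives for A8535, and in all 16 for PT-91 except that zp3 ranged from -0.55 to 0.030 with a library left out. Medians of the 10 ranged with a library left out from -0.13 to 0.14 with PNX-20, from -0.65 to -0.38 with A8535, from -0.78 to -0.49 with PT-91, and from -0.30 to 0.08 between the agonists. With PNX-20, zp3a.1 and zp3a.2 turned to -0.00798 and -0.0044 with scaling by library size, -0.0057 and -0.0052 without the filter, and -0.0028 and -0.0018 in 1 fit of 16 libraries. With a library left out, the PNX-20 values ranged from -0.18 to 0.13 for zp3a.1, -0.19 to 0.14 for zp3a.2, -0.062 to 0.28 for zp2.1, -0.32 to 0.43 for zp2.3, and -0.49 to 0.21 for zp2.5, and those between the agonists from -0.33 to 0.084 for zp3b, -0.21 to 0.079 for zp3a.1, -0.032 to 0.38 for zp3d.2, and -0.39 to 0.13 for zp2.2. Without the libraries of high mitochondrial share, zp3d.2 and zp2.2 turned to -0.064 and 0.039 between the agonists. The count at an unadjusted p under 0.05 was 1 with A8535 under scaling by library size and 1 without the libraries of high mitochondrial share, and 1 between the agonists under scaling by library size. Of all genes, those lower with A8535 by that rule were 125 of 17377 in the main fit. They were 63 of 17377 under scaling by library size and 64 of 18520 without the libraries of high mitochondrial share. With a library left out the count among the 10 ranged from 0 to 3 with A8535 and from 0 to 1 between the agonists (1 without PNX-20 replicate 3, A8535 replicate 3, or PT-91 replicate 2). All genes lower with PT-91 than with A8535 by that rule were 142 of 19216 in the main fit and 146 of 19216 under scaling by library size. Without those libraries, in that order, they were 160 of 19916, 175 of 19782, and 133 of 19864. No source ties the replicate numbers to fish. Same-numbered libraries had correlations of their deviations from -0.28 to 0.24 in the comparisons with the control, and between the agonists of -0.034, 0.26, 0.46, and 0.58, where 3 of 4 correlated best with their own number. As not every pair exceeded 0.1, the numbers were not taken as a pairing, although those of the agonists hint at one. With a replicate block 0 genes of the 10 were called, as without it, and the medians were 0.05, -0.49, -0.63, and -0.16, and with PNX-20 zp3a.1, zp3a.2, and zp2.5 turned to -0.026, -0.017, and 0.082. Why these values turned was not tested. The reads behind these genes were many (250 or more in a library), so the spread between libraries, not counting, limits their precision.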
